A study of Mus musculus with 9 samples.

Results

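The comparison was between erythroblasts of mice kept for 3 weeks on a low iron diet that began at weaning and erythroblasts of mice on normal diet, with 3 arrays in each group. Its members were the 14455 genes with a probe well above background throughout 1 or both of these groups of 3, of 14506 genes tested in the series and 20018 genes named on the array. Per the labels, all mice were wild-type C57BL/6J and female, and the cells were sorted from bone marrow as subset II erythroblasts. The series also holds 3 arrays after 7 weeks of low iron diet, which entered the fit for its estimate of the spread. The ages of the mice, the iron content of the diets and the number of animals behind an array were not given in the sources used here, and a p-value here therefore measures only how these samples vary.

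An erythroblast takes up most of its iron through the transferrin receptor, joins it to protoporphyrin in the mitochondrion and places the heme in globin. When iron is short, the kidney makes more erythropoietin, which signals through Epor, Jak2 and Stat5, and the heme-regulated kinase Eif2ak1 (HRI) phosphorylates eIF2 and raises translation of the transcription factor Atf4. Erythropoietin also induces erythroferrone (Erfe), the hormone by which erythroblasts lower hepcidin in the liver. Iron is further needed for the iron-sulfur clusters and hemes of the respiratory chain.

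Levels are log2 spot intensities relative to each array's 75th percentile, so a level of 0 lies at that percentile. A change is the log2 fold change, 3 weeks minus normal diet, ± the standard error of limma with 3 arrays in each group. A gene is said to have risen or fallen, or to be called, where limma's p-value adjusted over all 14506 genes (Benjamini-Hochberg, two-sided) was under 0.05. The 18 measured erythroblast markers had a mean level of 7.06 to 7.28 on the normal diet arrays and 6.98 to 7.11 at 3 weeks, and none of them was called. All 9 arrays are labelled female, but normal diet replicates 1 and 2 had Y-linked Eif2s3y at 5.12 and 4.82 and Xist, the RNA that silences an X chromosome, at -5.59 and -5.24. Normal diet replicate 3 had Eif2s3y at -3.77 and Xist at -0.73, and the 3-week arrays had Eif2s3y at -6.48 or lower and Xist at 0.37 or higher. Without those 2 normal diet arrays limma called 0 genes, with 1588 at an unadjusted p under 0.05, so the medians of the main lists are also given below against replicate 3 alone. The arrays of a group shared 1 slide and 1 scan with no other group, and the effect of the slide and that of the diet cannot be told apart. On the normal diet arrays 65.5% to 66.3% of spots were well above background, and on the 3-week arrays 56.8% to 70.8%.

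After 3 weeks, 6 of 23 targets of erythropoietin signalling and 8 of 39 enzymes of serine and one-carbon metabolism rose, and of 112 genes in lists of immune function 11 rose and 2 fell. Of 36 subunits of respiratory complex I 22 fell, as did 23 of 49 proteins of the large and 17 of 32 of the small cytosolic ribosomal subunit. None of 9 globin genes passed the test. Of 26 genes of iron handling 3 rose (11.5%) and none fell, and of 18 of heme synthesis 1 rose and 1 fell (5.56% each). Of 29 erythroid transcription factors 1 rose (3.45%) and 2 fell (6.90%). In all, 510 genes rose (3.52% of those tested) and 1143 fell (7.88%), and 4289 had an unadjusted p under 0.05. The median change was 1.86 among the genes that rose and -1.55 among those that fell, and -0.17 over all genes. With quantile normalization, which brings the median of all genes to -0.02, 615 genes rose and 808 fell, so the split between rises and falls depended on the scaling.

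The share that fell was uneven across levels. Among the brightest 2901 genes, the top class of 5, 439 fell (15.1%) and 15 rose, and their median change was -0.50, or -0.02 with quantile normalization. Among the dimmest 2902 genes 178 fell and 161 rose. Genes with the shortest genomic span, 62 to 5801 bases, fell in 301 of 2902 cases (10.4%), against 187 of 2901 (6.45%) for spans of 14138 to 27025 bases. Of the 627 genes in both the shortest and the brightest class, 133 fell (21.2%), with a median change of -0.58, or -0.12 with quantile normalization. For the lists of subunits below, the share that fell is therefore given for comparison with the 15.1% of the brightest genes as well as with the 7.88% of all genes. For lists of genes that are short as well as bright, 21.2% is the closer share, and lists were not matched by span. A fit of the 6 arrays alone called 1627 genes higher (11.2%) and 2789 lower (19.2%), among them all 1653 genes called with 9 arrays, in the same direction. The median standard deviation of a gene was 0.29 among normal diet arrays, 0.32 among 3-week arrays and 0.58 among 7-week arrays. Leaving out 1 of the 6 arrays compared left 65 to 233 genes higher and 116 to 610 lower in the fit with the 7-week arrays, and 154 genes (50 higher, 104 lower) were called whichever of the 6 was left out. In the fit of 6 arrays the same step left 1007 to 1258 higher and 1633 to 2371 lower.

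**Figure D1:**
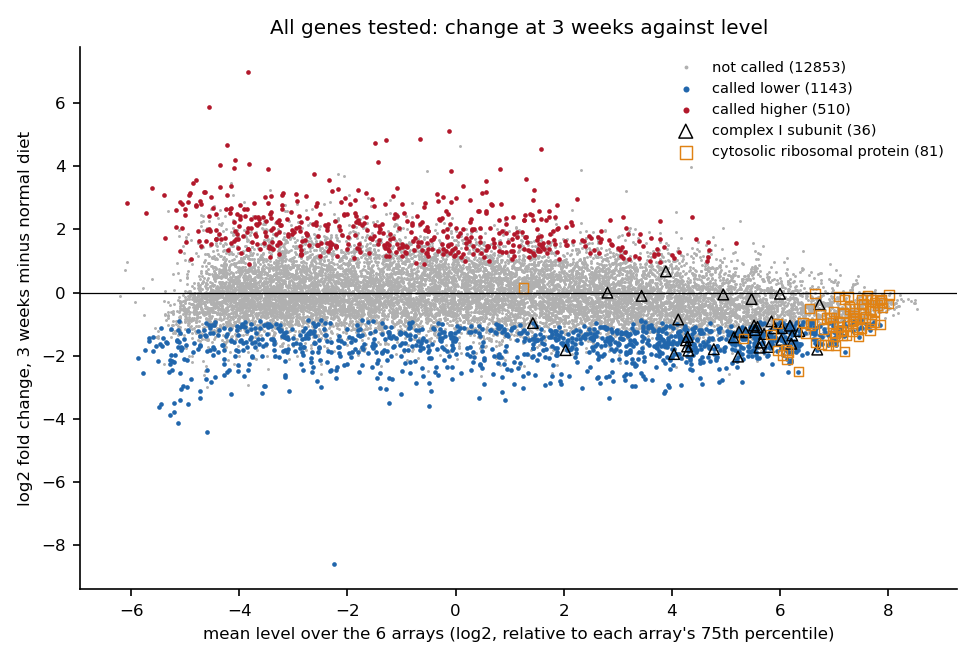
Each point is a gene, placed by its mean level over the 6 arrays (x axis, log2 relative to each array's 75th percentile) and its log2 fold change at 3 weeks against normal diet (y axis); red and blue points are the 510 genes called higher and the 1143 called lower, triangles are complex I subunits and squares cytosolic ribosomal proteins. Rises sit mainly among genes of low and middle level, while the 36 complex I subunits and 81 cytosolic ribosomal proteins lie at the bright end and mostly below 0; the lowest point, at -8.61, is Y-linked Eif2s3y.

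Erythropoietin and Stat5 targets. The hormone Erfe (chr1:91366305-91374217, GRCm38.p6) had levels of -0.71, -0.78 and -0.58 on normal diet and 3.91, 4.71 and 2.93 at 3 weeks, a rise of 4.54 ± 0.43 (adjusted p = 0.00794). The groups are far apart, with 3-week replicate 3 the lowest of its group. Socs3, a feedback inhibitor of cytokine receptors, rose by 3.05 ± 0.52 (adjusted p = 0.0134), from -3.11, -2.21 and -2.73 to 1.05, 0.98 and -0.94. Replicate 3 is again the lowest of the 3-week arrays. Ccnd2, a cyclin of G1 phase, rose by 2.03 ± 0.31 (adjusted p = 0.00987), from -0.92, -0.72 and -0.50 to 0.76, 1.80 and 1.37. Erfe and Ccnd2 were called whichever of the 6 arrays was left out, and Socs3 was called without 5 of the 6. The survival kinases Pim2 (3.02 ± 0.79) and Pim3 (1.41 ± 0.32) and the growth regulator Myc (1.45 ± 0.38) rose as well, so that 6 of the 23 measured targets rose. Leaving out 1 of the 6 arrays left 2 to 4 of them called higher. Mcl1, which protects from apoptosis, was the 1 target that fell (-1.19 ± 0.30), and a further probe of it read 0.25. The median change of the list was 0.83, and 0.82 against normal diet replicate 3 alone.

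Other targets had groups that did not overlap without passing the test. Cish, a further feedback inhibitor, had levels of 3.63, 4.04 and 3.89 on normal diet and 5.16, 5.69 and 4.25 at 3 weeks (1.18 ± 0.45, adjusted p = 0.122). Pim1 had 3.30, 3.16 and 3.45 against 5.04, 5.64 and 4.45 (1.74 ± 0.79, adjusted p = 0.177). In the fit of the 6 arrays Cish (adjusted p = 0.0473) and Pim1 (adjusted p = 0.00932) passed, and 11 of the 23 targets were called higher and 2 lower there, against 11.2% and 19.2% of all genes.

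The median change of the signalling core was -0.11. Of 31 measured genes of the receptor, Jak2 and Stat core, 2 rose (6.45%, against 3.52% of all genes) and 4 fell (12.9%, against 7.88%). Leaving out 1 of the 6 arrays left 0 to 2 of them called higher and 0 to 3 lower. Epor, the receptor itself, had 6.82, 6.84 and 6.79 on normal diet and 6.67, 6.62 and 6.71 at 3 weeks (-0.15 ± 0.29). Jak2, the kinase bound to the receptor, had a change of -1.20 ± 0.34 that did not pass (adjusted p = 0.0514), and Stat5a (-0.96 ± 0.53) and Stat5b (adjusted p = 0.998) did not pass either. Tyk2, a kinase of other cytokine receptors, rose by 2.24 ± 0.38, and Cbl, a ubiquitin ligase that turns over activated receptors, by 1.97 ± 0.37. The adaptors Grb2 (-1.91 ± 0.43) and Shc1 (-1.59 ± 0.37), the phosphatase Ptpn11 (-1.35 ± 0.31) and the kinase Akt2 (-1.29 ± 0.30) fell, all of which link receptors to the Ras and PI3 kinase pathways. Among 29 measured Socs, Sprouty, Spred and Dusp brakes, Ptpn1, a phosphatase of Jak kinases, rose by 1.57 ± 0.31 besides Socs3, and the phosphatase Dusp14 fell by 1.73 ± 0.35.

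Of 27 measured genes of bone morphogenetic protein signalling, 1 rose (3.70%, against 3.52% of all genes) and 4 fell (14.8%, against 7.88%). The activin receptor Acvr2b rose by 1.34 ± 0.33, and the type I receptor Acvr1 (-0.98 ± 0.24) and the signal transducer Smad3 (-1.19 ± 0.31) fell. Hjv, at least 2.38-fold, and the inhibitory Smad6, at least 2.07-fold, fell too. The folds are bounds, since both were well above background on all 3 normal diet arrays and on none of the 3-week arrays. Of 24 immediate early genes, Ier2 rose (2.22 ± 0.57) and Jund, a subunit of AP-1, fell (-1.78 ± 0.33). Among 12 measured clock genes, the repressors Per2 (3.06 ± 0.68) and Nr1d2 (1.52 ± 0.41) rose, and of 18 glucocorticoid targets Tsc22d3 (GILZ) rose by 1.95 ± 0.37.

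**Figure D2:**
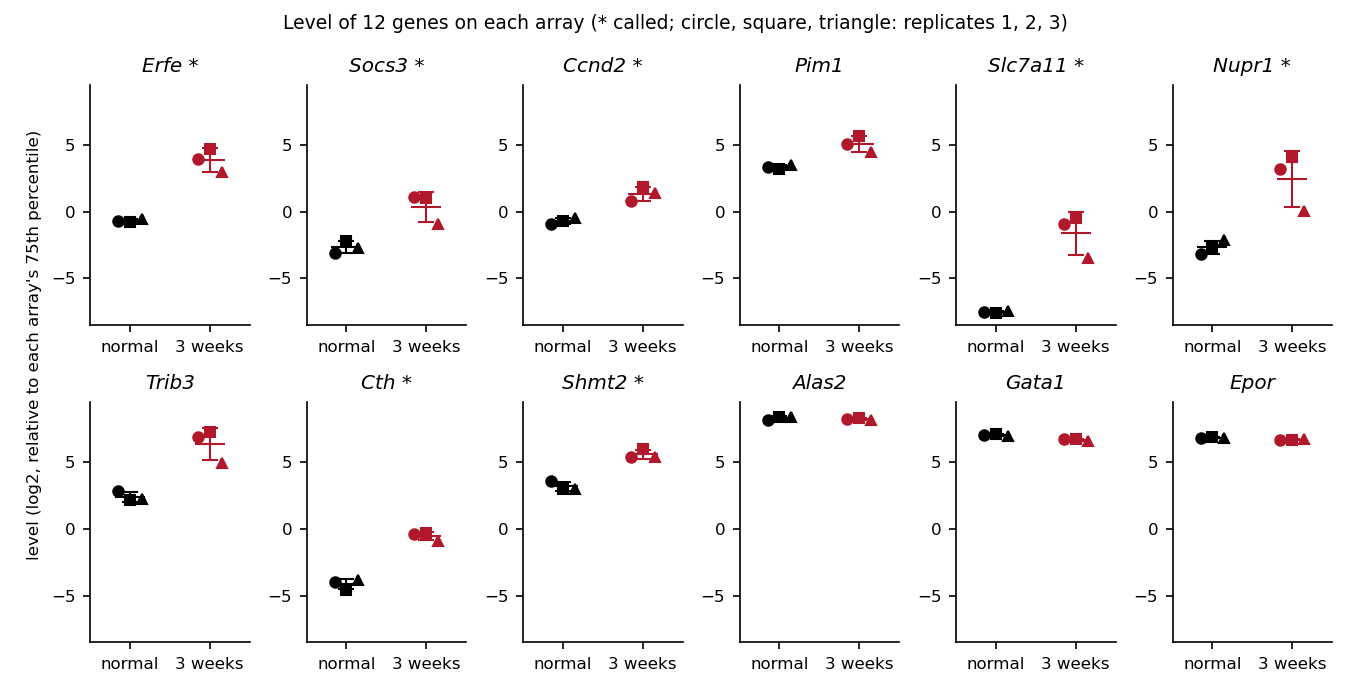
Level of 12 genes (y axis, log2 relative to each array's 75th percentile) on each normal diet (black) and 3-week array (red); symbols mark replicates 1 to 3, horizontal bars the mean and error bars the SD (n = 3), and an asterisk a call. In Erfe, Socs3, Pim1, Slc7a11, Nupr1 and Trib3 the third red symbol, 3-week replicate 3, is the one nearest to normal diet, while Alas2, Gata1 and Epor lie at about the same level in both groups.

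Atf4 and amino acid metabolism. Genes of this pathway are induced when eIF2 is phosphorylated, and many carry a composite site for Atf4 and a C/EBP factor in or near the promoter. TGATGCAA, a core of that site, was searched on both strands in the 250 bases before the transcript start in the RefSeq promoters (build GRCm38.p6). It was found in 223 of 27025 promoters (0.825%) and in 80 of 11610 promoters of genes tested (0.689%). It was also in 7 of 387 promoters of genes that rose (1.81%) and in 6 of 929 of genes that fell (0.646%). A match is a description of the letters and not a shown binding site. Of 15 genes searched, the 8 called enzymes among them, 14 had a promoter entry and 3 held the letters. Those 3 promoters, of Slc7a11, Nupr1 and Chac1, are shown, and none of Trib3, Ddit3, Asns, Psat1, Mthfd2, Shmt2, Gpt2, Gcat, Ahcy, Ahcyl1 and Erfe held a match. A promoter of Socs3 is given with TTCNNNGAA, the letters of a Stat dimer site, which 7.14% of all promoters hold. These letters are in 6.37% of promoters of genes tested, 8.79% of genes that rose and 7.21% of genes that fell. The promoter of Shmt2, also read singly for TTCNNNGAA, held a match that begins 55 bases before the start and is not shown. Other targets of Stat5 that rose were not read singly for it. Capitals mark the matches. Slc7a11 lies on the minus strand (chr3:50443614-50443863, 2 matches, which begin 66 and 47 bases before the start), as do Nupr1 (chr7:126625471-126625720, 110 bases) and Socs3 (chr11:117969367-117969616, 154 bases). Chac1 lies on the plus strand (chr2:119350992-119351241, 193 bases).
Slc7a11: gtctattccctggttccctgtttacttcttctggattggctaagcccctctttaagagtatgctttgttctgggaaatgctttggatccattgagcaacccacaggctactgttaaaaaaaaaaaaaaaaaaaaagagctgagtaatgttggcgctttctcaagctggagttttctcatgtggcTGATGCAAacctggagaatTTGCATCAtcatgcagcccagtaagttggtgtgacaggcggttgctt
Nupr1: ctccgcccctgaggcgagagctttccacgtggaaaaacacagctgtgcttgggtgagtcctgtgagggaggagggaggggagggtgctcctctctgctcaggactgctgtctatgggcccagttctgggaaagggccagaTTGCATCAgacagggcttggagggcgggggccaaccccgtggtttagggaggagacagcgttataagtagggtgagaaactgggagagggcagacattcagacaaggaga
Chac1: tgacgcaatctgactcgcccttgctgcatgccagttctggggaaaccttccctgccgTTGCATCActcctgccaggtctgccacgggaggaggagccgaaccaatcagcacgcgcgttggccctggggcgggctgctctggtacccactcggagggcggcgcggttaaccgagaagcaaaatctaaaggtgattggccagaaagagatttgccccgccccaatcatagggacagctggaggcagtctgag
Socs3: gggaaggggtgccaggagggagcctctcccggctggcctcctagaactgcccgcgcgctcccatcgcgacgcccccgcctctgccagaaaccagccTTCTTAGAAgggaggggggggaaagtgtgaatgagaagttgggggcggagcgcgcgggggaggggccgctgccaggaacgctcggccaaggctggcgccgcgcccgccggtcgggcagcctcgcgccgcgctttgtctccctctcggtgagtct

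Slc7a11, which imports cystine for glutathione synthesis, was not well above background on any normal diet array (-7.50, -7.55 and -7.43) and had levels of -0.91, -0.48 and -3.47 at 3 weeks. It rose at least 17.8-fold (adjusted p = 0.015), against the lowest signal that counted as above background. Nupr1, a stress-induced transcription regulator, rose by 5.11 ± 1.37 (adjusted p = 0.0445), from -3.15, -2.75 and -2.14 to 3.20, 4.06 and 0.05. Replicate 3 of the 3-week group is the lowest in both genes, well below the other 2 arrays. Nupr1 was the 1 call among 25 measured kinases and regulators of the integrated stress response, although the list's median change was 0.86, and 0.86 against normal diet replicate 3 alone.

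Trib3, a pseudokinase induced by Atf4, had levels of 2.82, 2.14 and 2.20 on normal diet and 6.88, 7.20 and 4.95 at 3 weeks (3.96 ± 1.66, adjusted p = 0.148). Chac1, which degrades glutathione, had -0.34, 0.07 and 1.45 against 4.69, 5.46 and 2.66 (3.88 ± 1.26, adjusted p = 0.0772). Ddit3 (CHOP) had 3.86, 3.70 and 4.23 against 6.13, 6.77 and 5.03 (2.05 ± 1.19, adjusted p = 0.282). In all 3 genes the groups do not overlap, 3-week replicate 3 is the lowest of its group, and none passed. In the fit of the 6 arrays Trib3 (adjusted p = 0.00601), Chac1 (adjusted p = 0.011) and Ddit3 (adjusted p = 0.014) passed. That fit called 10 of the 25 regulators higher and 0 lower, against 11.2% and 19.2% of all genes. Atf4 mRNA (0.08 ± 0.39) and that of the kinase Eif2ak1 (-0.39 ± 0.50) did not pass. Atf3, a further factor of the pathway, had a change of 2.87 ± 1.76 (adjusted p = 0.31).

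Of 39 measured enzymes of serine, asparagine, proline and one-carbon metabolism, 8 rose and none fell, with a median change of 0.11, or 0.28 against normal diet replicate 3 alone. Leaving out 1 of the 6 arrays left 2 to 5 of them called higher. Cth, which makes cysteine from cystathionine, rose by 3.57 ± 0.50 (adjusted p = 0.00926), from -3.96, -4.56 and -3.86 to -0.43, -0.34 and -0.89. Shmt2, the mitochondrial serine hydroxymethyltransferase, rose by 2.38 ± 0.35 (adjusted p = 0.00939), from 3.57, 2.98 and 3.00 to 5.37, 5.94 and 5.37. The 3-week values lie close together in both enzymes, and both were called whichever of the 6 arrays was left out. Its partner in the mitochondrial folate pathway, Mthfd2, rose by 1.57 ± 0.36, and Psat1, of serine synthesis, by 1.62 ± 0.42. Gpt2, the mitochondrial alanine transaminase, rose at least 6.03-fold, and Gcat, which breaks down threonine-derived aminoketobutyrate, at least 3.67-fold, bounds since no normal diet array was well above background for either. Ahcyl1 (1.60 ± 0.41) and Ahcy, of the methionine cycle (1.37 ± 0.38), rose too, Ahcy with an adjusted p just under the threshold. Asns, asparagine synthetase, had 5.87, 5.32 and 5.60 against 6.74, 6.83 and 6.45 (1.08 ± 0.39, adjusted p = 0.105), and passed with quantile normalization (adjusted p = 0.015).

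The lists around these enzymes held few calls. Of 24 cytosolic aminoacyl tRNA synthetases, which are also Atf4 targets in part, 1 rose (Vars, 1.14 ± 0.31) and none fell. With quantile normalization 3 of them rose and none fell, and the list's median went from 0.18 to 0.62. Of 26 amino acid transporters, Slc38a6 (1.23 ± 0.27) rose besides Slc7a11, and Slc1a4 (-1.97 ± 0.45) and Slc38a3 (-1.54 ± 0.39) fell. Of 46 measured enzymes of glutathione and peroxide metabolism, glutathione synthetase (Gss) rose by 1.51 ± 0.32 and 3 fell. Of 38 measured genes of the growth kinase complex mTORC1 and its brakes, the kinase Mtor (1.60 ± 0.27), the arginine sensor Castor1 (at least 5.05-fold, a bound as for Gpt2) and Nprl2 (1.24 ± 0.33) rose. The lysosomal anchor subunit Lamtor1 fell (-1.54 ± 0.26). Eif4ebp2, a repressor of cap-dependent translation that mTORC1 inactivates, changed by -3.17 ± 0.34 (adjusted p = 0.00794), from 5.57, 5.67 and 5.12 to 2.27, 2.08 and 2.49. Its groups are separated by a wide gap, and it was called whichever of the 6 arrays was left out.

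Respiratory chain and mitochondria. Of 36 measured subunits of complex I, which passes electrons from NADH to ubiquinone, 22 fell and none rose (61.1%, against 7.88% of all genes and 15.1% of the brightest). The list's median change was -1.25, or -1.14 against normal diet replicate 3 alone and -0.83 with quantile normalization, where 10 subunits fell. Leaving out 1 of the 6 arrays left 1 to 12 subunits called lower. Ndufa3 (chr7:3617347-3620165) had levels of 6.19, 6.46 and 6.08 on normal diet and 4.03, 4.07 and 4.54 at 3 weeks (-2.03 ± 0.28, adjusted p = 0.00926). Ndufv3 (-1.95 ± 0.45, a further probe at 0.79) and Ndufb2 (-1.84 ± 0.45) also fell.

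The fall was uneven within the complex. Of the 29 accessory subunits, which surround and stabilise the enzyme, 20 fell, with a median change of -1.41. Of the 7 nuclear-encoded catalytic core subunits, which carry the flavin and the iron-sulfur clusters or the quinone site, Ndufs7 (-1.09 ± 0.28) and Ndufv2 (-1.04 ± 0.26) fell, and the median change was -0.06 (0.37 with quantile normalization). Ndufs1, the largest core subunit, had levels of 5.10, 4.80 and 5.06 on normal diet and 4.83, 4.77 and 5.17 at 3 weeks (-0.06 ± 0.29). Ndufv1, which binds the flavin, had a change of -0.37 ± 0.33 and did not pass. The median level over the 6 arrays was 5.53 for the core and 5.48 for the accessory subunits. Their genomic spans, which also went with the share that fell, were not compared. The split into core and accessory subunits was made after the values were seen and has no test.

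**Figure D3:**
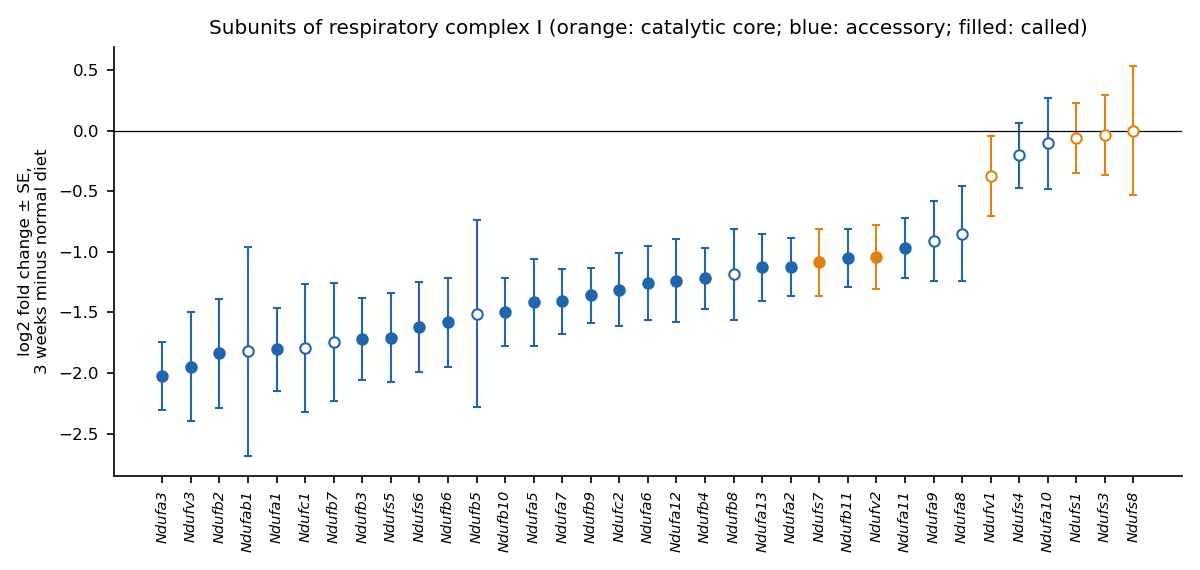
Log2 fold change at 3 weeks against normal diet (y axis, ± SE of limma, 3 arrays in each group) of the measured complex I subunits but 1 (x axis, in order of their change); filled symbols are called. Blue accessory subunits fill the low end, from Ndufa3 at -2.03, and the orange core subunits other than Ndufs7 and Ndufv2 are open symbols at the upper end.

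The other complexes fell in part. Of 10 members of complex III with cytochrome c 5 fell, of 16 of complex IV 7 fell, of 18 of ATP synthase 6 fell, and none rose in any of them. These are shares of 50%, 43.8% and 33.3%, and leaving out 1 of the 6 arrays left 1 to 4, 1 to 5 and 2 to 5 called lower. The median changes were -0.96, -1.01 and -0.91, and against normal diet replicate 3 alone -0.94, -0.86 and -0.91. Atp5k, subunit e of ATP synthase, had levels of 6.73, 6.85 and 6.55 on normal diet and 3.78, 3.47 and 4.42 at 3 weeks (-2.82 ± 0.44, adjusted p = 0.0108). Uqcr10 of complex III went from 6.17, 6.38 and 6.07 to 3.82, 3.37 and 4.26 (-2.39 ± 0.30, adjusted p = 0.00794). Replicate 3 is the highest of the 3-week arrays in both genes. Uqcr11 (-2.02 ± 0.50) and Uqcrq (-1.62 ± 0.25) of complex III, Cox6c (-2.14 ± 0.33), Cox7b (-1.81 ± 0.30) and Cox7c (-1.58 ± 0.31) of complex IV, and Atp5e (-1.96 ± 0.42) and Atp5md (-1.88 ± 0.26) of ATP synthase fell. The catalytic subunits of ATP synthase did not pass: Atp5b had 7.77, 7.82 and 7.75 against 7.41, 7.58 and 7.58 (-0.26 ± 0.23), and the value of Atp5a1 was -0.74 ± 0.28. Of the 4 subunits of complex II, Sdhc fell (-1.43 ± 0.29).

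Of 48 respiratory complex assembly factors, 8 fell (16.7%) and 1 rose, with a median change of -0.54, or -0.20 against normal diet replicate 3 alone. Romo1, an inner membrane protein, fell by 2.51 ± 0.43, Cmc1, a copper-binding factor of complex IV assembly, by 2.23 ± 0.38, and the copper chaperone Cox17 by 1.79 ± 0.31. The rise of Coa5 (1.70 ± 0.37) rests on 1 of its probes, since a further probe passed in the opposite direction (-1.17). Of 78 mitochondrial ribosomal proteins 11 fell (14.1%, below the share of the brightest genes) and none rose, with a median change of -0.68, or -0.38 against replicate 3 alone and 1 to 5 called lower without 1 array. They were led by Mrps21 (-2.15 ± 0.27), Mrpl52 (-1.92 ± 0.51) and Mrps36 (-1.63 ± 0.30). Of 34 genes of mitochondrial protein import 4 fell (11.8%), among them the translocase components Timm8b (-1.88 ± 0.34), Tomm7 (-1.86 ± 0.28) and Dnajc19 (-1.77 ± 0.42). Of 43 mitochondrial carriers, Slc25a39, the glutathione importer, rose by 2.29 ± 0.48 (adjusted p = 0.0214), from 0.31, 0.15 and 1.11 to 2.86, 3.23 and 2.36. The carrier Slc25a45 rose (2.10 ± 0.51) and the coenzyme A carrier Slc25a42 fell (-2.06 ± 0.33). Among 36 genes of mitochondrial dynamics and biogenesis, Polg, the mitochondrial DNA polymerase, rose by 1.88 ± 0.35, and Gabpb1, Mfn2 and Micos10 fell by their brightest probe, with a further probe of each above 0.

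Of 24 measured mitophagy receptors and genes of the Pink1 pathway, 2 fell and none rose. Among them was the outer membrane receptor Bcl2l13 (-2.03 ± 0.35). Bnip3l (Nix), a mitophagy receptor needed by reticulocytes, had levels from 7.72 to 8.13 on normal diet and a lowest level of 7.71 at 3 weeks (-0.12 ± 0.27), so its groups overlap. No gene of the 36 measured of the core autophagy machinery passed, and the 2 with the lowest p were Atg4c (-1.31 ± 0.41) and Atg16l1 (1.22 ± 0.40). In the fit of the 6 arrays 7 of these 36 were called higher and 5 lower, against 11.2% and 19.2% of all genes. Of 36 measured genes of glycolysis, the phosphofructokinase Pfkp rose by 3.20 ± 0.45 (a further probe at -0.91), Pfkfb2, which makes the activator of that enzyme, by 1.96 ± 0.34, and the glucose transporter Slc2a3 by 1.75 ± 0.41. The lactate exporter Slc16a3 fell (-2.56 ± 0.34), as did Hk1 by its brightest probe (-1.30 ± 0.23).

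Ribosome and RNA synthesis. Of 49 measured proteins of the large cytosolic subunit 23 fell (46.9%) and none rose, and of 32 of the small subunit 17 fell (53.1%) and none rose. Leaving out 1 of the 6 arrays left 2 to 11 and 3 to 15 of them called lower. The median change was -0.80 and -1.01, and -0.69 and -0.90 against normal diet replicate 3 alone. With quantile normalization it was -0.30 and -0.49, and 7 and 9 proteins fell. Rps21 (chr2:180257379-180258444) had levels of 7.64, 7.77 and 7.37 on normal diet and 4.93, 4.72 and 5.63 at 3 weeks (-2.50 ± 0.41, adjusted p = 0.0121). Rpl38 went from 7.18, 7.42 and 6.97 to 5.03, 4.89 and 5.31 (-2.11 ± 0.28, adjusted p = 0.00914). The groups of both genes lie more than 1 log2 unit apart. Rps29 (-1.87 ± 0.27), Rpl36 (-1.88 ± 0.29) and Rpl22l1 (-1.84 ± 0.31) fell by similar sizes. Rps15a fell by its brightest probe (-1.98 ± 0.27), and 1 further probe passed in the opposite direction (2.01). At the other end, Rps2 had 8.11, 8.03 and 8.04 against 7.95, 8.06 and 7.95 (-0.07 ± 0.31) and Rpl21 had a change of 0.15 ± 0.51.

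Other RNA and protein complexes held fewer falls. Of 25 Sm and Lsm proteins, which form the rings of spliceosomal and decay complexes, 7 fell (28.0%) and none rose, with a median change of -0.99, or -0.97 against normal diet replicate 3 alone. With quantile normalization 2 fell, and leaving out 1 of the 6 arrays left 0 to 1 called lower. The falls were led by Snrpg (-1.88 ± 0.51), Lsm5 (-1.79 ± 0.44) and Snrpf (-1.78 ± 0.46). Of 30 RNA polymerase subunits Polr2k (-1.83 ± 0.34), Polr2i (-1.54 ± 0.35), Polr3k (-1.50 ± 0.34) and 2 others fell, and Polr3d rose (1.15 ± 0.29), with a median change of -0.46, or -0.06 against replicate 3 alone. Of 34 genes of the endoplasmic reticulum translocon and signal peptidase 4 fell (11.8%) and 1 rose. Among those that fell was Sec61g, which went from 7.16, 7.34 and 7.41 to 5.20, 4.81 and 5.31 (-2.20 ± 0.27, adjusted p = 0.00794), and Sec61b (-1.60 ± 0.30). Both are subunits of the Sec61 channel.

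Of 51 translation initiation factors 4 fell (7.84%, near the share of all genes) and none rose, among them Eif1ax (-1.72 ± 0.29) and Eif3k (-1.45 ± 0.28) besides Eif4ebp2, and with quantile normalization 3 rose and 3 fell. Of 87 ribosome biogenesis genes, 4 rose and 5 fell. The factors Bms1 (1.86 ± 0.44), Nob1 and Nop14 (1.47 ± 0.40), which process the small subunit, rose. Efl1 (-1.82 ± 0.32), Utp23 (-1.72 ± 0.26) and Imp3 (-1.64 ± 0.36) fell. Among 91 further splicing genes, Hnrnpl (1.91 ± 0.46) and Hnrnpa1 (1.84 ± 0.35) rose and 10 fell, led by Sf3b4 (-2.42 ± 0.38), Magohb (-1.68 ± 0.30) and Mbnl1 (-1.57 ± 0.33). With quantile normalization 5 of the 91 rose and 4 fell, and the list's median turned from -0.25 to 0.22. Of 33 proteasome regulators and assembly factors 7 fell (21.2%; 3 fell and 2 rose with quantile normalization), among them the activator Psme3 (-2.05 ± 0.43), the assembly chaperone Pomp (-1.64 ± 0.26) and Psmd3 (-1.47 ± 0.28). Of 60 ubiquitin and ubiquitin-like conjugation genes 7 fell (11.7%; 3 fell and 2 rose with quantile normalization), led by Urm1 (-1.68 ± 0.27), Ube2a (-1.40 ± 0.30) and Ube2l3 (-1.32 ± 0.23). Further probes of Pomp and Ube2a read 0.30 and 0.32.

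**Figure D4:**
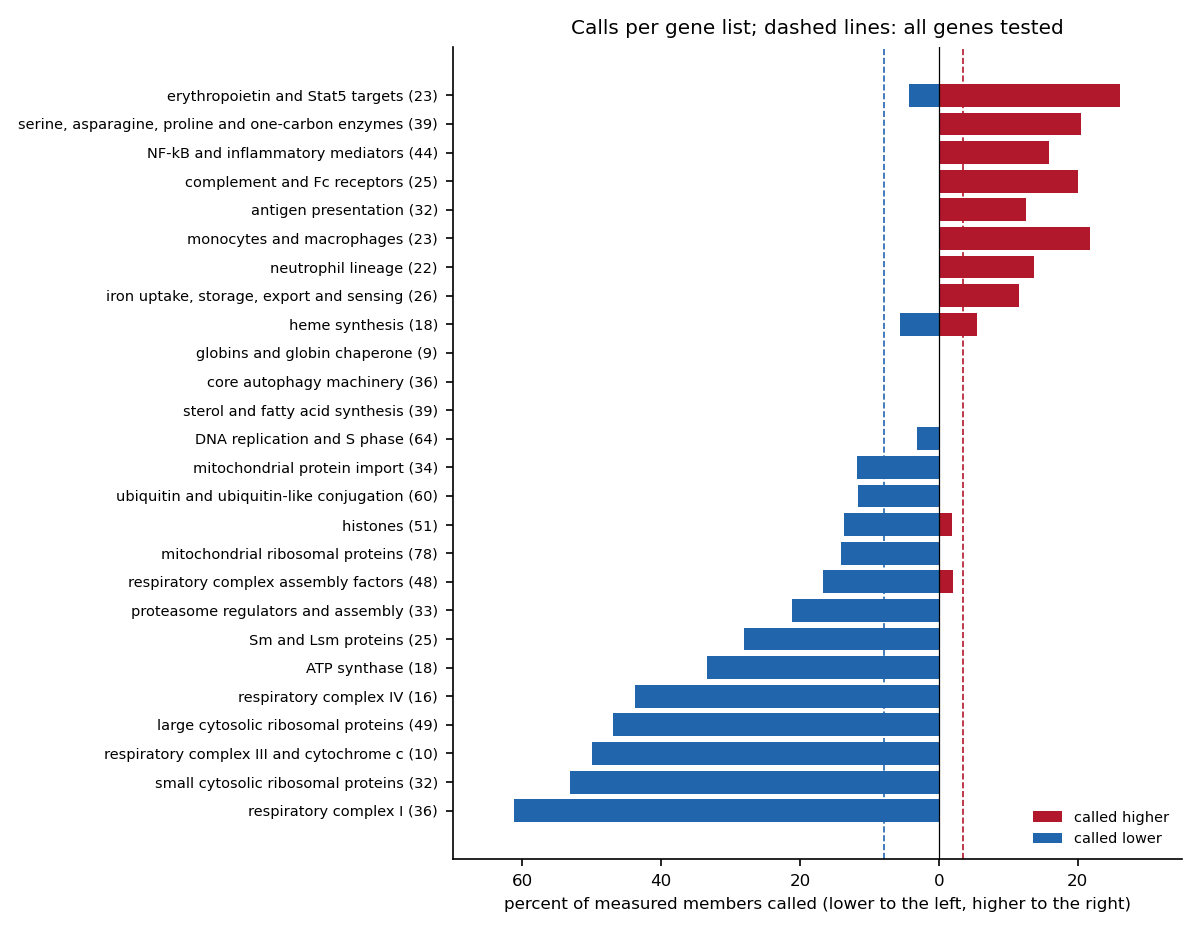
Percent of the measured members of 26 gene lists (y axis, number of members in brackets) called lower (blue, to the left) and higher (red, to the right) at 3 weeks against normal diet; dashed lines mark 7.88% and 3.52% of all genes tested. Complex I reaches 61.1% on the lower side and erythropoietin and Stat5 targets 26.1% on the higher side, and globins, core autophagy and sterol synthesis have no bar.

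Cell cycle and nucleus. Of 64 measured genes of DNA replication 2 fell and none rose. Of 97 genes of mitosis 9 fell and 1 rose, but with quantile normalization 11 rose and 6 fell, so the direction of the list depended on the scaling. The 2 largest falls were of subunits of the anaphase-promoting complex, Anapc13 (-2.99 ± 0.55) and Anapc11 (-2.64 ± 0.63, a further probe at 1.04), followed by the kinase Melk (-1.71 ± 0.26). Separase, Espl1, rose by 1.40 ± 0.28. Among 28 G1 regulators, E2f5 rose (2.26 ± 0.57) besides Ccnd2, and Cdkn2a fell at least 4.64-fold, a bound, since it was well above background on all 3 normal diet arrays and on none at 3 weeks. Cdkn1a (p21) had levels of -1.87, -1.99 and -2.84 against a range of -1.95 to 2.50 (2.85 ± 1.01, adjusted p = 0.098), with 3-week replicate 3 inside the normal diet range.

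Of 51 measured histone genes 7 fell (13.7%) and 1 rose, and with quantile normalization 4 fell and 2 rose. The list's median change was -0.78, or -0.43 against normal diet replicate 3 alone. H3c8 (-2.55 ± 0.51), H4c14 (-2.28 ± 0.56) and H2ac1 (-1.88 ± 0.32) fell and H3c7 rose (1.13 ± 0.26), where near-identical copies may share probe signal. Of 115 chromatin regulators 15 fell, a share above that of all genes and below that of the brightest, and 2 rose. Only 6 fell with quantile normalization, where 2 rose and the list's median went from -0.21 to -0.02. Between 1 and 7 were called lower when 1 of the 6 arrays was left out. The methyltransferase Ehmt1 (-2.24 ± 0.37), the Polycomb partner Asxl1 (-2.15 ± 0.28) and Setd1a (-1.74 ± 0.42) fell, and Smarcc2 of the BAF remodelling complex rose (1.66 ± 0.32). Ncor1 rose by its brightest probe (1.73 ± 0.41), with a further probe at -0.71. Of 54 cytoskeletal genes, the tubulin cofactor Tbca (-2.82 ± 0.39), cofilin Cfl1 (-2.77 ± 0.69), the dynein light chain Dynlrb1 (-1.71 ± 0.27) and 3 others fell, and vimentin, Vim (2.06 ± 0.54), and Capza2 (1.22 ± 0.26) rose. These falls were 11.1% of the list, and with quantile normalization 3 fell and 3 rose.

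Iron, heme and the erythroid programme. Of 26 measured genes of iron uptake, storage, export and sensing 3 rose (11.5%, against 3.52% of all genes) and none fell. Besides Erfe, these were Slc11a1 (2.04 ± 0.49), an endosomal metal transporter of macrophages and neutrophils, and Exoc6 (1.76 ± 0.48), an exocyst subunit needed for transferrin recycling in red cell precursors. The transferrin receptor Tfrc had 7.04, 6.15 and 7.33 on normal diet and 7.41, 7.16 and 6.99 at 3 weeks (0.35 ± 0.43), the iron exporter Slc40a1 6.29, 5.68 and 6.08 against 5.38, 5.16 and 5.67 (-0.61 ± 0.30), and ferritin heavy chain Fth1 8.29 to 8.39 against 7.93 to 8.03 (-0.34 ± 0.24). None of these 3 passed. The groups of Tfrc overlap, while those of Slc40a1, by a narrow margin, and Fth1 do not and are lower at 3 weeks. Of all genes 31.6% were lower without overlap. Of 18 heme synthesis genes, Slc25a39 rose and coproporphyrinogen oxidase, Cpox, fell (-1.36 ± 0.26), while Alas2, the rate-limiting enzyme, had a change of -0.09 ± 0.26. With quantile normalization 4 of the 18 rose and none fell, and with normexp 5 rose and 1 fell. Of 29 genes of iron-sulfur cluster assembly, Bola3 (-1.90 ± 0.29) and 1 other fell.

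No globin gene of 9 measured passed, but all 9 had changes below 0, from -2.14 to -0.16. Their mean level was 3.51 to 3.67 on normal diet and 2.82 to 2.89 at 3 weeks, with no overlap. The groups of 6 of the 9 did not overlap, against 31.6% of all genes lower without overlap. In the fit of the 6 arrays 3 of the 9, the embryonic Hba-x, Hbb-bh1 and Hbb-y, were called lower, against 19.2% of all genes. With quantile normalization the list's median was at 0 to 2 decimals. Hba-a1 had a change of -0.34 ± 0.26, and Hbb-y had the lowest p (-1.74 ± 0.65, adjusted p = 0.111). The erythroid factors Gata1 (-0.34 ± 0.30) and Klf1 (-0.28 ± 0.31) did not pass. Of the 29 erythroid transcription factors, Zfpm1 (FOG-1), the partner of Gata1, fell from 6.88, 6.94 and 6.85 to 5.39, 5.24 and 5.31 (-1.58 ± 0.23, adjusted p = 0.00939), and E2f4 fell (-1.79 ± 0.39). Spi1 (PU.1), a factor of myeloid cells and early progenitors, rose from a level at which no normal diet array was well above background, at least 5.64-fold (-7.27, -5.69 and -5.15) to -3.75, -2.21 and -3.12. Of 19 genes of the membrane skeleton, beta-spectrin, Sptb, rose by 3.14 ± 0.42, from low levels of -5.08, -5.03 and -4.18 to -0.96, -1.86 and -2.05. Of 32 surface antigens and channels, the water channel Aqp1 (-1.04 ± 0.25) and the calcium pump Atp2b4 by its brightest probe (-1.27 ± 0.30, a further probe at 0.47) fell. Of 21 progenitor and early erythroid genes 1 rose and 1 fell, with a median change of 0.36, or 0.38 against normal diet replicate 3 alone. The fall was of the integrin Itga4 by its brightest probe (-1.28 ± 0.31, a further probe at 0.51). Of 45 iron and oxoglutarate dioxygenases and related genes 3 rose and 2 fell, among them the histone demethylase Kdm3b, which rose (2.48 ± 0.68). The oxygen sensor Egln3 rose (1.80 ± 0.47) and Arnt, the partner of the hypoxia-inducible factors, fell (-1.43 ± 0.37). Of the other fixed readouts, Hmox1 (0.76 ± 0.39) and Vegfa (1.83 ± 0.60) did not pass.

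Immune genes and markers of other cells. Of 44 measured NF-kB and inflammatory genes 7 rose and none fell. Leaving out 1 of the 6 arrays left 0 to 1 of them called higher. These were the decoy receptor Il1r2 (3.30 ± 0.74), the receptors Ccr1, Il10ra (2.18 ± 0.49) and Il6ra (2.04 ± 0.46), the cytokines Il15 (2.12 ± 0.56) and Ccl9 (2.00 ± 0.48), and the regulator Nfkbiz (1.98 ± 0.49). Of 32 antigen presentation genes 4 rose, all of the class II pathway: H2-Aa, H2-DMb2, H2-DMa and the invariant chain Cd74. H2-Aa went from a highest level of -1.05 on normal diet to 1.69 and 2.48 on 3-week replicates 1 and 2 and a similar level on replicate 3 (3.38 ± 0.42, adjusted p = 0.00794), and H2-DMa (2.33 ± 0.41) and Cd74 (1.78 ± 0.38) rose by less. Replicate 2 is the highest 3-week array for H2-Aa. Of 25 complement and Fc receptor genes 5 rose, among them Fcgr2b (3.26 ± 0.41), Fcgr3 (2.80 ± 0.41), Itgax (1.55 ± 0.36) and C1qa (1.38 ± 0.34). Of 49 interferon-stimulated genes 2 fell and none rose, Ly6e (-1.01 ± 0.25) and Iigp1 by its brightest probe (a further probe at 1.71). The median change was 0.63 for the NF-kB list, 0.82 for antigen presentation, 0.44 for complement and Fc receptors and 0.31 for interferon-stimulated genes. Against normal diet replicate 3 alone it was 0.62, 0.60, 0.45 and -0.10.

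Some markers of other marrow cells rose too. Their lists share members with the lists of immune genes, among them C1qa and Csf1r. Of 23 measured markers of monocytes and macrophages 5 rose, Lyz2, Slc11a1, Cd14, Axl and C1qa, and their mean level was 0.13 to 0.73 on the normal diet arrays and 1.19 to 1.55 at 3 weeks. Of 22 neutrophil lineage markers Mmp9 (3.52 ± 0.52), Ngp (2.98 ± 0.50) and Cd177 (2.42 ± 0.42) rose, with mean levels of 1.09 to 2.75 against 2.10 to 3.31. Of 17 B lineage markers Ms4a1 (1.45 ± 0.38) and 1 other rose, with mean levels of -1.88 to -1.24 against -0.62 to 0.58. The median change was 0.91 for monocytes and macrophages, 1.08 for neutrophils and 1.41 for the B lineage. Against normal diet replicate 3 alone it was 0.62, 1.17 and 1.36. Lyz2 went from -1.06, 0.29 and -0.71 to 2.52, 3.99 and 2.78 (3.59 ± 0.48, adjusted p = 0.00887), and Cd14 (1.92 ± 0.36) and Axl rose too. In the neutrophil list S100a8, a calcium-binding protein of neutrophils, had 5.02, 6.71 and 5.72 on normal diet against 4.26, 5.21 and 4.97 (-1.01 ± 0.46), and S100a9 -0.68 ± 0.42. The macrophage receptor Csf1r (-0.27 ± 0.38) and the B cell receptor component Cd79a (-0.40 ± 0.38) did not pass. No marker of these 3 lists was below background on all arrays of either group. The part of other cells in the immune genes was not tested, and in bulk samples a change in the number of cells of a type and a change in RNA per cell cannot be told apart.

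The further marker lists held few calls. Of 19 T and NK cell markers Klrd1 rose (1.97 ± 0.48) and perforin, Prf1, fell (-1.79 ± 0.32), and the ranges of the mean level overlapped. None of 18 megakaryocyte and platelet markers passed; Itga2b (3.07 ± 1.00, adjusted p = 0.0767) and Itgb3 (1.62 ± 0.61) had the lowest p. None of 17 markers of mast cells, basophils and eosinophils and none of 11 of endothelium and stroma passed. On 3-week replicate 1 the mean of the mast cell, basophil and eosinophil markers was -2.72, against -0.81 to 0.12 on normal diet and -0.19 and -0.08 on the other 3-week arrays.

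**Figure D5:**
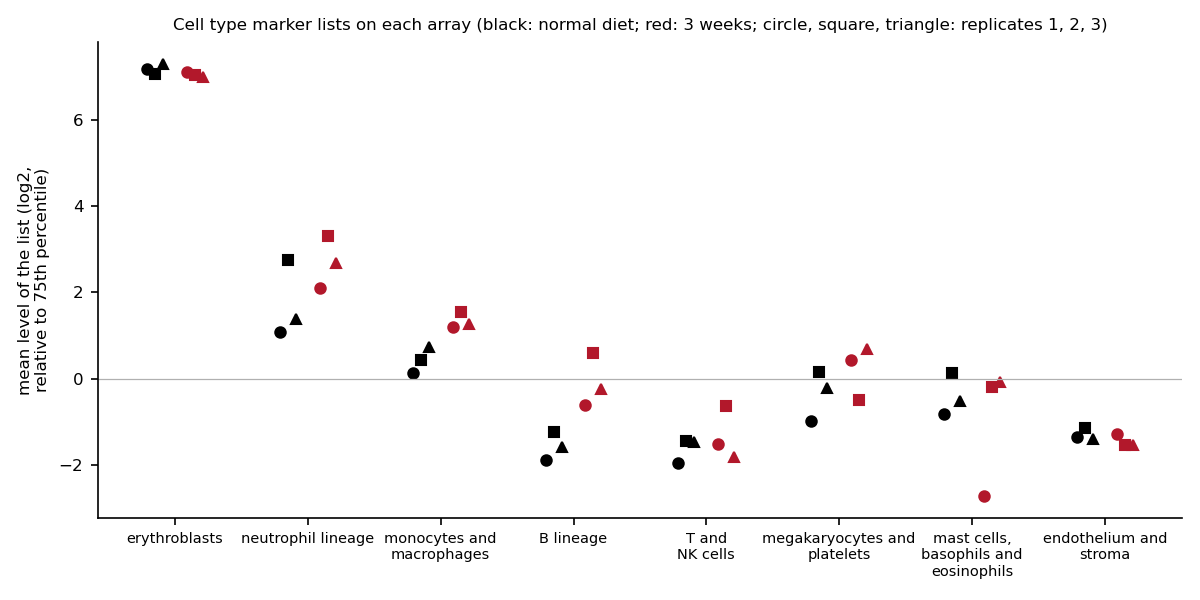
Mean level of 8 lists of cell type markers (y axis, log2 relative to each array's 75th percentile) on each normal diet (black) and 3-week array (red), with symbols for replicates 1 to 3. Erythroblast markers lie near 7 on all arrays; markers of monocytes and macrophages and of the B lineage are higher on every 3-week array than on any normal diet array, and the neutrophil ranges overlap.

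Genes outside the lists. Of the 510 rises 415, and of the 1143 falls 878, were in none of the 83 lists. Among genes well above background on all 6 arrays, with groups that did not overlap and no probe of opposite sign, the lowest p after Erfe among rises were of Ppm1e, Mlxip, Spg21, Fcgr2b, H2-Aa, Sap25, Ppt1, Sla and Lyz2. Ppm1e, a phosphatase of the kinases CaMK and AMPK, went from -3.57, -3.98 and -3.55 to 1.60, 1.66 and 0.16 (4.84 ± 0.52, adjusted p = 0.00794). Mlxip (MondoA), a glucose-sensing transcription factor, went from -2.70, -2.81 and -2.63 to -0.18, 0.27 and 0.20 (2.81 ± 0.31). Spg21 (2.58 ± 0.30), the lysosomal thioesterase Ppt1 (2.09 ± 0.27), Sap25 (2.05 ± 0.26) and the adaptor Sla (2.78 ± 0.37) rose as well. The lowest p among falls were of Gm20815, Eif4ebp2, Nos2, Zfp707, Prss53, Epp13, Lrrc8a, Glis1, Foxn3 and Mocs1. Lrrc8a, a subunit of the volume-regulated anion channel, went from 5.10, 5.03 and 4.96 to 1.99, 1.96 and 2.80 (-2.78 ± 0.32, adjusted p = 0.00794). Foxn3 (-2.58 ± 0.31), Zfp707 (-2.89 ± 0.32), Epp13 (-3.12 ± 0.36), Mocs1, of molybdenum cofactor synthesis (-2.49 ± 0.30), nitric oxide synthase Nos2 (-2.45 ± 0.27), Glis1 (-2.35 ± 0.28) and Prss53 (-2.22 ± 0.25) fell. Gm20815 is on the Y chromosome, but its levels were alike on the 3 normal diet arrays (-0.46, -0.64 and -0.53), unlike Eif2s3y, and lower at 3 weeks, at -2.98 or below.

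Some genes were well above background on all arrays of 1 group and on none of the other, 71 at 3 weeks and 87 on normal diet. Slfn4, a myeloid Schlafen gene, rose at least 43.4-fold (adjusted p = 0.00914), from -7.36, -7.34 and -7.29 to -0.38, 0.46 and -1.10, and its relative Slfn2 rose by 1.86 ± 0.47. After Slc7a11, the next largest bounds were of Ms4a6b, at least 14.8-fold, H2-DMb2, at least 12.6-fold, and St8sia6, at least 11.3-fold. On the lower side, Eif2s3y, which rests on normal diet replicates 1 and 2, was at least 193-fold lower, followed by Tmprss11f at least 8.93-fold, Krtap19-9b, Kcnk10 at least 5.62-fold and Calhm4 at least 5.22-fold. Of 436 called genes with 2 or more tested probes, 273 had all further probes on the same side and 13 had a further probe called in the opposite direction.

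The 3-week arrays were not equally far from normal diet. Among the genes that rose, replicate 2 was farthest from the normal diet mean in 296 of 510 (58%), and among those that fell in 612 of 1143 (53.5%). Replicate 3 was nearest to normal diet in 595 of the 1143 falls (52.1%). The comparison after 7 weeks shares the normal diet arrays, so its values are given beside these without a count of agreement. Erfe had a change of 4.61 at 7 weeks against 4.54 at 3 weeks, Socs3 7.62 against 3.05, and Ccnd2 3.55 against 2.03. Shmt2 had 0.70 against 2.38, Rps21 -0.01 against -2.50 and Atp5k 0.66 against -2.82.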

How the data were processed

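Expression was measured on 1-colour Agilent arrays. Per the labels, the dye was Cy3. Spot intensity comes from the deposited output of Agilent Feature Extraction 10.7.3.1, per the file headers: the software subtracted background and removed spatial trends, and arrays were not scaled to each other. Other columns hold flags for background, saturation and outliers, per the file headers. A deposited log2 table of the same arrays, centred per probe, was an alternative; the authors' normalization before centring is not given in the sources used here.

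Control spots and outlier spots were left out, and no spot was saturated. The log2 intensity minus each array's 75th percentile was the value of a spot, with spots of 1 probe averaged. Names came from RefSeq accessions (GRCm38.p6): 26413 of 55681 probes got a name. Tested probes were well above background throughout at least 1 group, and the brightest probe stood for its gene. A fold for a gene not above background in a group is a bound against the lowest signal above background on each array. limma 3.58.1 in R 4.3.3 (lmFit, eBayes) was fitted over all 9 arrays, with 3 groups and no covariate. A run on simulated data gave each gene the same spread in all groups, so it cannot judge the effect of their unequal spread. The number of arrays limits the precision.

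The members and the 83 gene lists were chosen with earlier results of these data known, so they give no independent support. Genes were named by rule: fixed readouts, up to 3 called members per list and direction with the largest change, the 2 lowest p of a list without calls, the 10 lowest p in each direction, and the 5 largest bounds; Jak2, Stat5a, Stat5b, Atf3, Eif2ak1, Chac1, Ndufs1, Ndufv1, Atp5a1, Atp5b, S100a8, S100a9, Csf1r, Cd79a and further called members were added after their values were seen. The alternatives were another set of arrays, scaling, background correction, filter, choice of probe, prior and replicate block; the background correction (normexp) used median signals. Some genes are not reported here.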

Additional observations from a re-analysis of the deposited data

Results flagged for a closer look

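Of 204 called genes chosen by the naming rule or named above, 142 had a difference between 7 and 3 weeks of low iron diet that passed limma's adjusted threshold, and 20 of these also passed at 7 weeks against normal diet in the opposite direction. The genes were picked by their calls at 3 weeks, and the same 3-week arrays enter this difference. The choice of genes can therefore raise these counts, and the share over all genes was not counted. Among genes that rose at 3 weeks, the 7-week minus 3-week difference (log2) was -5.23 for Cd177, -4.13 for Slc11a1, -3.62 for Spg21, -3.43 for Exoc6, -3.17 for Nop14, -2.87 for Ahcy, -2.80 for Nob1, -2.71 for Ms4a1, -2.42 for C1qa, -2.35 for Espl1 and -2.16 for Capza2. Among genes that fell at 3 weeks it was 4.63 for Epp13, 3.34 for Uqcr10, 3.13 for Ndufa3, 3.11 for Rpl38, 3.09 for Rpl36, 3.07 for Prf1, 2.85 for Rps15a, 2.66 for Dynlrb1 and 2.54 for Uqcrq. The 75th percentile used for scaling was a signal of 1499 to 1616 on normal diet, 1677 to 1837 at 3 weeks and 791.7 to 1087 at 7 weeks, and its part in these differences was not tested.

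Probes without a gene name stayed outside the comparison: of 15962 tested in the same way, 384 were higher and 1850 lower at 3 weeks.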

How the results depend on the processing

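The 510 higher and 1143 lower genes became 1627 and 2789 in the fit of the 6 arrays, and 791 higher genes with normexp and quantile normalization; the cause was not tested. Leaving out 1 array gave 65 to 1258 higher and 116 to 2371 lower genes over all such fits, the largest being those without the spread of the 7-week arrays; without 7-week replicate 1 there were 1198 and 2305. Those fits and the fits of 6 arrays with 1 left out were added after seeing the data. Without normal diet arrays 1 and 2 together there were 0 and 0, where a single normal diet array remained and was assumed to vary like the other groups. Requiring a change of at least 1 on the log2 scale as well left 505 and 1088. The other alternatives gave 447 to 615 higher and 808 to 1323 lower. Same-numbered replicates did not deviate together (r of 0.01, 0.25 and -0.17), and the replicate block gave 474 and 927. Of these 204 called genes, 170 kept their call with quantile normalization, 172 with the mean over probes and 168 without a filter; Iigp1 reversed to 0.36 with the mean over probes. Of 83 list medians, 25 changed sign with quantile normalization and 1 with the deposited table. With 3 arrays in a group, and with genes near background carrying bounds, small changes were not detectable.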
